A study of Danio rerio with 9 samples.

Results

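The genes described here are the solute carriers on a zebrafish oligonucleotide array: every gene with 1 symbol in the platform's probe annotation whose symbol starts with slc and a digit, apart from slc1a2b and slc18a3a. There were 92 such genes, of 5355 genes with 1 symbol. They fall into 36 numbered families and were read by 98 probes. For the 6 genes with more than 1 probe, the brightest probe over the 9 arrays was used. The choice used symbols and no difference between tissues.

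Solute carriers are membrane proteins that move amino acids, sugars, metal ions, nucleotides, vitamins and inorganic ions. They do so down a gradient, together with another ion or in exchange for one, without splitting ATP themselves. Most sit in the plasma membrane, and the SLC25 family sits mainly in the inner mitochondrial membrane. In nervous tissue the group is best known for clearing neurotransmitters, feeding glucose, lactate and amino acids to cells, and setting the chloride and pH balance of neurons.

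RNA came from hindbrain slices of islet-1 GFP transgenic zebrafish embryos at 19 to 20 hours post fertilization, and each sample pooled tissue of 8 to 10 embryos. The 3 tissues were measured on 3 arrays each: Hoxb1a-deficient r4, which is rhombomere 4 of embryos injected with a Hoxb1a morpholino; normal r2, which is rhombomere 2 of untreated embryos; and normal r4, rhombomere 4 of untreated embryos. For replicate 3 of Hoxb1a-deficient r4, the title gives the deficiency but the tissue label does not, and the group follows the title. All 3 groups carried the transgene, and a slice held whatever tissue lay across the segment. Trypsin at 0.025% was recorded for every sample of all 3 groups. Each tissue was sampled in experiment 2, r2 was missing from experiment 1, and r2 was sampled on 2 arrays (3a and 3b) in experiment 3. A rhombomere is a segment of the embryonic hindbrain, and Hoxb1a is the Hox transcription factor that gives r4 its identity. The study compared the tissues to find genes that act downstream of Hoxb1a, with r2 as another tissue lacking it.

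Levels are spot intensities divided by a constant per array, so that 1 is about the array median. Both arrays of experiment 1 had a higher upper quartile (6.15 and 6.87) than the other 7 arrays (3.64 to 4.75). The hoxb1a probe averaged 2.07 in Hoxb1a-deficient r4, 0.644 in normal r2 and 2.44 in normal r4. It passed limma's test between normal r2 and normal r4 (adjusted p = 0.0285), but a morpholino need not lower the transcript, so it does not check the knockdown. Of 14 neural progenitor and neuron markers, 10 averaged above 2 array medians, among them sox2 at 15.3, 11.1 and 19.2 in Hoxb1a-deficient r4, normal r2 and normal r4. Precision is limited by the small number of arrays, and a p-value here speaks of the spread among 9 pooled tissue samples. Without a block for the experiment, the test treats them as independent, although arrays were paired by experiment and normal r2 was missing from experiment 1. In whole-tissue RNA, fewer cells of a type and less RNA per cell cannot be told apart.

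Of the 92 solute carrier genes, 39 (42.4%) averaged above 2 array medians over the 9 arrays, against 2515 of all 5355 genes (47.0%). The count above 2 was 39 in Hoxb1a-deficient r4, 36 in normal r2 and 39 in normal r4, and 35 genes were above 2 in all 3 tissues. On every single array 30 were above 2, and 48 were above 2 on none. Below the array median on all 9 arrays lay 41 (44.6%), against 1649 of all genes (30.8%). At that brightness signal was not separated from background, so a dim probe does not show that a transcript was missing. The genes nearest the threshold were slc30a9 (2.17), slc35h1 (2.19) and slc2a3a (2.28) above it, and slc35f2 (1.85), slc40a1 (1.62) and slc43a2a (1.47) below it. A probe's brightness also depends on its sequence, so the order of genes by level below describes probes, not transcript abundance.

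**Figure D1:**
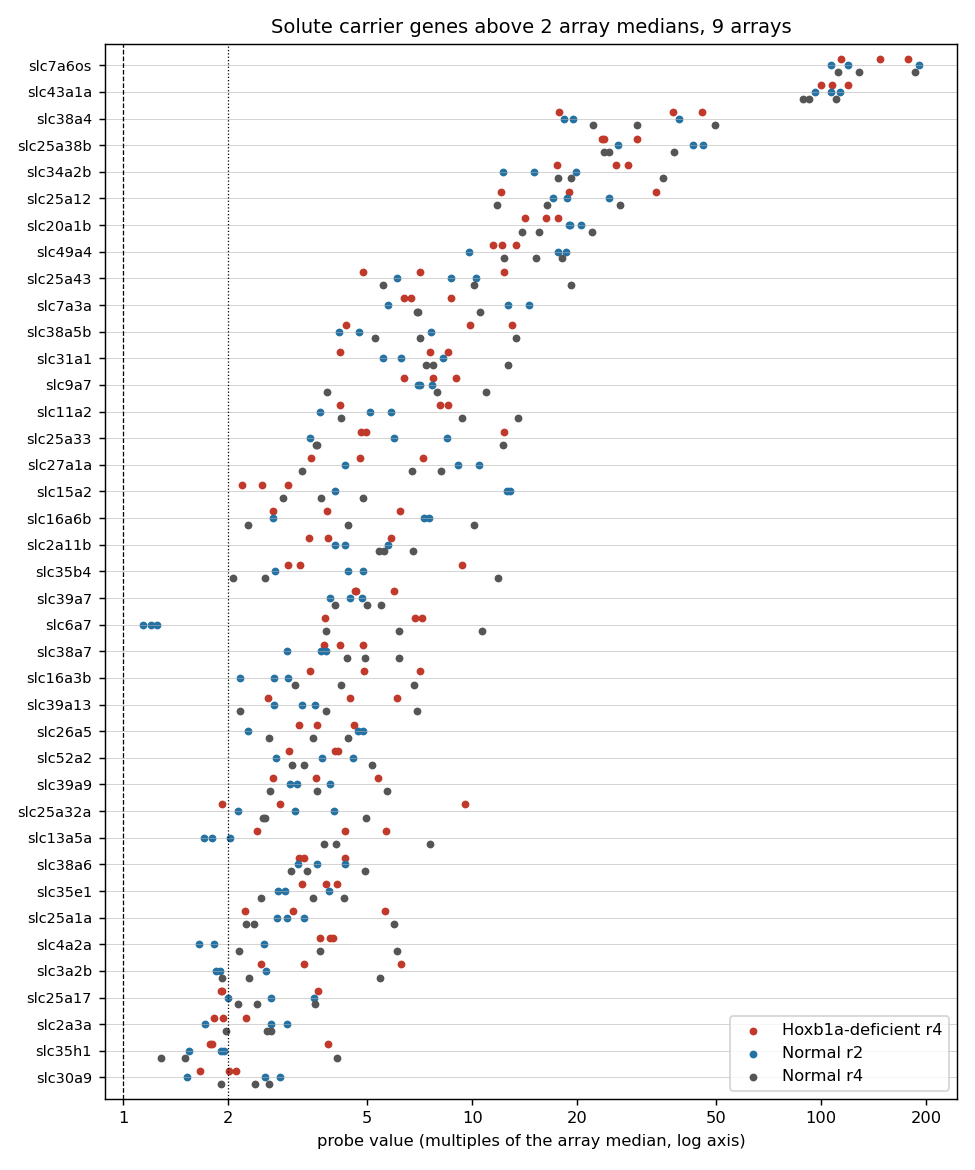
Levels of the 39 solute carrier genes that averaged above 2 array medians, in multiples of the array median on a log axis; each point is 1 array, coloured by tissue (Hoxb1a-deficient r4, normal r2, normal r4), genes are ordered by their mean over 9 arrays, and the dashed and dotted lines mark 1 and 2 array medians. The points of slc43a1a lie between 88.7 and 120, on some arrays close to the highest value of the array. Those of slc6a7 and slc15a2 spread from 1.14 to 10.7 and from 2.18 to 12.9.

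Amino acid carriers held the brightest transporter probe. The probe of slc43a1a, a facilitated carrier of large neutral amino acids (LAT3 in mammals), read 99.7, 120 and 107 in Hoxb1a-deficient r4 of experiments 1, 2 and 3. In normal r2 it read 96.0, 106 and 113 in samples 2, 3a and 3b, and in normal r4 it read 110, 92.5 and 88.7. The 3 tissues overlapped, and the gene's other probe stayed below 1 on all arrays. The bright probe was close to the highest value of some arrays. It read 106 of 107 in r2 sample 3a and 107 of 114 in Hoxb1a-deficient r4 of experiment 3. Differences between tissues may therefore be compressed, and the overlap does not show equal levels. In the SLC38 family of sodium-coupled carriers of glutamine and other neutral amino acids, 4 of 6 genes were above 2: slc38a4, slc38a5b, slc38a6 and slc38a7. The slc38a4 probe averaged 33.7 ± 14.4 in Hoxb1a-deficient r4, 25.6 ± 11.7 in normal r2 and 33.8 ± 14.2 in normal r4 (SD, n = 3 arrays each). Also above 2 were slc7a3a, a carrier of cationic amino acids, at a mean of 8.79 over the 9 arrays, and slc3a2b, the heavy chain that takes amino acid exchangers to the cell surface, at 3.11.

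The SLC6 family, which holds the sodium- and chloride-coupled carriers of neurotransmitters and amino acids, had 1 of 6 genes above 2. That gene was slc6a7, whose mammalian counterpart is a brain carrier of proline. Below the array median on every array were slc6a1a (0.381 to 0.735), named for a GABA transporter, and slc6a3 (0.407 to 0.789), named for the dopamine transporter. The 4 genes of the cation-chloride family SLC12, slc12a3, slc12a7b, slc12a8 and slc12a9, were all at or below 2, the highest with a mean of 0.946. The peptide carriers had 1 of 3 genes above 2, slc15a2, a proton-coupled carrier of di- and tripeptides (PEPT2 in mammals).

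Of the 12 mitochondrial carrier genes of the SLC25 family, 7 were above 2. The brightest was slc25a38b, whose family member in yeast and mammals brings glycine into mitochondria for heme synthesis, at 25.7 ± 3.46 in Hoxb1a-deficient r4, 38.3 ± 10.7 in normal r2 and 28.8 ± 7.94 in normal r4 (SD, n = 3 each). Next came slc25a12, the aspartate-glutamate carrier, at 12.1 to 33.7 in Hoxb1a-deficient r4, 17.03 to 24.6 in normal r2 and 11.7 to 26.5 in normal r4. The others above 2 were slc25a43, slc25a33 (pyrimidine nucleotides), slc25a32a (folate or FAD), slc25a1a (citrate) and slc25a17, a peroxisomal member. The related probes for slc25a1b, slc25a16, slc25a24, slc25a44a and slc25a48 were at or below 2.

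Phosphate import was represented by slc20a1b and slc34a2b, 2 of 3 genes above 2, while slc34a2a stayed between 0.382 and 0.716. The slc20a1b probe read 16.3, 17.6 and 14.2 in Hoxb1a-deficient r4, against 19.0, 20.5 and 18.9 in normal r2 and 22.1, 15.5 and 13.9 in normal r4. Normal r2 lay above Hoxb1a-deficient r4 on every array and inside the range of normal r4. The slc34a2b probe read 27.97, 25.8 and 17.5 in Hoxb1a-deficient r4, against 12.3, 19.9 and 15.1 in normal r2 and 35.2, 19.2 and 17.6 in normal r4. For slc20a1b a dimmer probe (2.70 to 4.55) differed in sign from the bright one in all 3 comparisons, with no unadjusted p under 0.05 on either. The other slc34a2b probe stayed below 1 on all arrays.

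Metal carriers above 2 were 4 of 8 zinc carriers (slc30a9, slc39a7, slc39a9 and slc39a13), the copper importer slc31a1 (7.57 over 9 arrays) and slc11a2, which imports iron and other divalent metals (6.94). In mammals the products of slc39a7 and slc39a13 release zinc from the endoplasmic reticulum and Golgi. The iron exporter slc40a1 passed 2 only on the 2 arrays of experiment 1, at 2.97 in Hoxb1a-deficient r4 and 3.43 in normal r4. On its other 7 arrays it read 1.02 to 1.31.

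Sugar and organic acid carriers above 2 were slc2a11b and slc2a3a (a neuronal glucose transporter in mammals) of 4 SLC2 genes, slc16a3b (a lactate exporter in mammals) and slc16a6b of 5 monocarboxylate carriers, and slc13a5a (sodium-coupled citrate uptake) of 2 SLC13 genes. Nucleotide sugar carriers, which supply glycosylation in the Golgi and endoplasmic reticulum, had slc35b4, slc35e1 and slc35h1 of 7 above 2. Further genes above 2 were slc27a1a (fatty acids), slc9a7 (an organelle sodium-proton exchanger), slc4a2a (chloride-bicarbonate exchange), slc26a5 (the counterpart of prestin, the motor protein of mammalian outer hair cells), slc52a2 (riboflavin) and slc49a4, a lysosomal carrier. The slc49a4 probe read 12.3 ± 0.919 in Hoxb1a-deficient r4, 15.3 ± 4.83 in normal r2 and 15.2 ± 2.87 in normal r4 (SD, n = 3 each). Both SLC5 and both SLC22 genes, which carry sugars, vitamins and organic ions, were at or below 2.

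The slc7a6os probe was the brightest of the 92 genes, at the highest value of the array on 8 of 9 arrays, and its differences between tissues are therefore not measured. Its symbol matches the rule through its place on the strand opposite a carrier gene, and it does not encode a transporter. The gene stays among the 39 in the counts and medians below.

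Normal r2 was compared with normal r4 to find what sets the segments apart. Proline carrier slc6a7 was lower in r2, and it was the only one of the 92 genes to pass limma's test. Its probe read 1.25, 1.14 and 1.20 in normal r2 samples 2, 3a and 3b, against 10.7, 3.82 and 6.16 in normal r4 of experiments 1, 2 and 3. All r2 arrays lay near the array median and below all r4 arrays, so background may hide a larger difference. The log2 fold change was -2.40 ± 0.37 (SE, n = 3 each; 95% interval -3.22 to -1.58), which is 5.27-fold lower in r2, with an adjusted p of 0.0160 over 16227 probes in limma. Within experiments the log2 difference was -1.61 in experiment 2 and -2.39 in experiment 3. The highest r4 array, that of experiment 1, had no r2 array of its experiment and raises the unblocked fold. With the experiment as a block r2 was 4.36-fold lower.

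With the experiment as a replicate block, slc6a7 was again the 1 gene called, at a log2 fold change of -2.12 ± 0.29 and an adjusted p of 0.00720 in limma. The unblocked call was lost without normal r2 replicate 2 (adjusted p = 0.0726), 3a (0.0920) or 3b (0.0860), without normal r4 replicate 3 (0.0779), with 3a and 3b averaged into 1 sample (0.0869) and on log2(value + 1) (0.110) or log2(value + 16) (0.642). The blocked call was lost without normal r4 replicate 3 (0.102), with experiment 1 left out (0.0594) and on log2(value + 1) (0.114). Leaving out normal r4 replicate 1 is the same blocked fit as leaving out experiment 1, because the block absorbs the 1 array that remains there. In each of these fits the direction was the same. The call of 1 gene in 92 stands beside 1.01% of all genes called without the block and 2.5% with it. It is near the share without the block and below the share with it.

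Beside slc6a7, 3 more of the 39 genes above 2 had r2 arrays that did not overlap r4: slc13a5a, slc16a3b and slc38a7, all lower in r2. These 4 of 39 stand beside 11.1% of the 2515 genes above 2 whose groups did not overlap. A difference of at least 1.5-fold in the same direction in both experiments with r2 was seen in 2 of 39, slc6a7 and slc13a5a, beside 6.4% of the 2515 genes. Both shares are near those of all genes. In normal r2, slc6a7 and slc13a5a averaged 1.20 and 1.84, so they were among the 39 through the r4 tissues. That filter favours a lower level in r2, and it was also applied to the 2515 genes.

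The citrate carrier slc13a5a read 2.02, 1.70 and 1.79 in normal r2, against 7.58, 4.06 and 3.75 in normal r4. The log2 difference was -1.01 within experiment 2 and -1.10 within experiment 3. Its fitted log2 fold change was -1.41 ± 0.35 and did not pass limma's test (adjusted p = 0.223, and 0.0642 with the block). Lactate carrier slc16a3b read 2.16, 2.97 and 2.71 in normal r2, against 6.83, 3.10 and 4.20 in normal r4, with within-experiment log2 differences of -0.52 and -0.56. For slc38a7 the levels were 2.95, 3.69 and 3.82 in normal r2, against 6.17, 4.37 and 4.91 in normal r4. Neither passed limma's test (adjusted p = 0.959 for both, and 0.346 and 0.162 with the block). The r4 arrays nearest to r2 were those of experiment 2 for both genes.

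The anion exchanger gene slc4a2a read 1.65, 1.82 and 2.54 in normal r2, against 6.07, 2.15 and 3.66 in normal r4, and here the groups overlapped. Its log2 fold change was -0.88 ± 0.34 (limma adjusted p = 0.959, and 0.252 with the block). A dimmer probe of slc4a2a, below 1 on all arrays, gave 0.42 for the same comparison. The iron importer slc11a2 read 3.67, 5.08 and 5.83 in normal r2, against 13.5, 4.22 and 9.33 in normal r4 (log2 fold change -0.76 ± 0.43), and slc34a2b had -0.57 ± 0.32. Neither passed limma's test (adjusted p = 0.959 for both, and 0.162 and 0.763 with the block). The other probes of slc11a2 and slc34a2b, below 1 on all arrays, gave 0.07 each for the same comparison.

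The peptide carrier slc15a2 had the highest fitted ratio of r2 to r4 of the 92 genes, and its r2 arrays differed between experiments. It read 4.04 in normal r2 sample 2 and 12.9 and 12.6 in samples 3a and 3b, against 4.87, 2.87 and 3.67 in normal r4. Sample 2 lay below the normal r4 array of experiment 1, so the groups overlapped. Within experiments the log2 difference was 0.49 in experiment 2 and 1.79 in experiment 3. The log2 fold change of 1.22 ± 0.42 did not pass limma's test (adjusted p = 0.701), nor did 1.16 ± 0.28 with the block (0.0874). Without normal r2 replicate 2 the gene did pass (adjusted p = 0.0434), and then slc15a2 in place of slc6a7 was the 1 gene called. Normal r2 was then only 3a and 3b, both of experiment 3, which that fit treated as independent. The pass therefore rests on r2 of 1 experiment.

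Several other genes were higher in r2 than in r4 of experiment 3 but close to r4 in experiment 2. The log2 differences in experiments 2 and 3 were 0.09 and 0.90 for slc25a38b, -0.07 and 0.99 for slc25a33, -0.16 and 0.93 for slc9a7, and -0.27 and 0.96 for slc7a3a. None of these passed limma's test, with or without the block. For slc27a1a the differences of 0.41 and 0.54 were more alike, with an adjusted p of 0.223 in the blocked limma fit. These 5 genes were chosen after their values were seen. Over all 2515 genes above 2, the median log2 difference of r2 against r4 was 0.03 in experiment 2 and 0.16 in experiment 3. Over the 39 solute carrier genes it was -0.09 and 0.24.

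**Figure D2:**
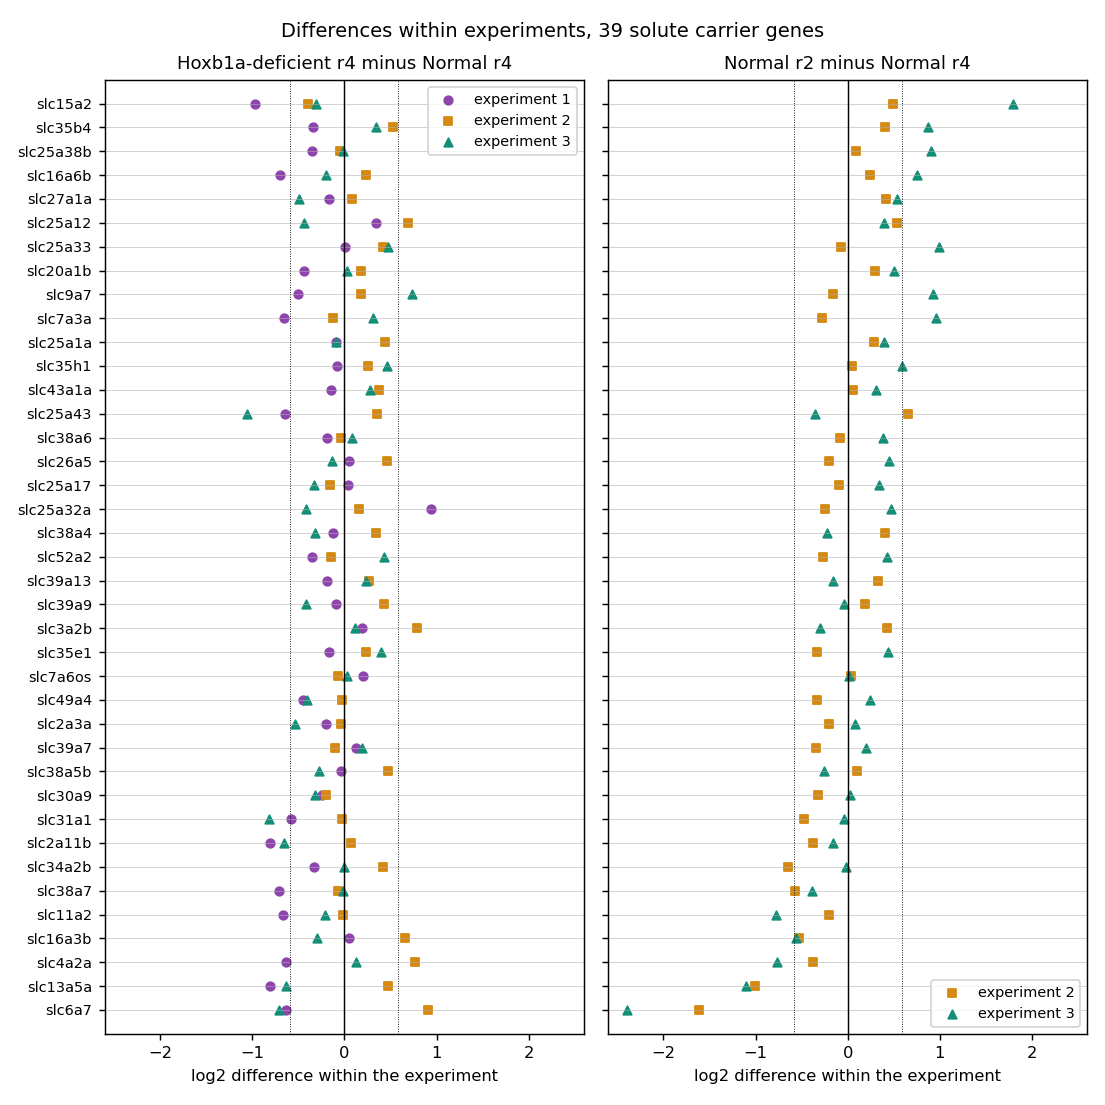
Differences within experiments for the 39 solute carrier genes above 2 array medians; the left panel shows Hoxb1a-deficient r4 minus normal r4 and the right panel normal r2 minus normal r4 (mean of 3a and 3b in experiment 3), on the log2 scale, with dotted lines at 1.5-fold. In the right panel slc6a7 and slc13a5a lie left of the dotted line in both experiments, and slc15a2 reaches 1.79 in experiment 3; in the left panel no gene lies beyond either line in all 3 experiments.

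Over the 39 genes the median log2 fold change of r2 against r4 was -0.08, and -0.08 over all 2515 genes above 2. In this unblocked fit 12 of the 39 were higher in r2. With the block 24 of 39 were higher (median 0.05, against 0.10 over all genes), and 24 of 39 after quantile normalization. The unadjusted limma p was under 0.05 for 7 of the 92 genes, beside 5.49% of all genes, and for 13 with the block, beside 14.1%.

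The comparison of Hoxb1a-deficient with normal r4 was made to find transcripts that change without Hoxb1a. Only the Hoxb1a-deficient embryos were injected, and the normal embryos were untreated. Here and against normal r2, effects of the injection cannot be told apart from those of lost Hoxb1a. No solute carrier gene passed limma's test: 0 of 92 at an adjusted p under 0.05, beside 0% of all genes called, and 0 at an unadjusted p under 0.05, beside 0.523% of all genes. With the replicate block 0 of 92 were called (again 0% of all genes), and 2 had an unadjusted p under 0.05, slc3a2b and slc25a48, beside 6.09% of all genes. Groups overlapped for all 39 genes above 2, beside 2.62% of the 2515 genes whose groups did not, and 0 of 39 differed by at least 1.5-fold the same way in all 3 experiments, beside 0.239%. The median log2 fold change of the 39 was -0.02, against -0.06 over all 2515 genes, and single genes ranged from -0.56 to 0.36. In this fit 18 of 39 were higher in Hoxb1a-deficient r4, and 23 of 39 after quantile normalization.

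Among the genes above 2 in at least 1 of the r4 tissues, the 8 with the lowest p had small differences. The copper importer slc31a1 read 8.51, 7.57 and 4.18 in Hoxb1a-deficient r4, against 12.7, 7.72 and 7.39 in normal r4. Its log2 fold change was -0.48 ± 0.33 (SE, n = 3 each; 95% interval -1.20 to 0.25), and the tissues overlapped. Sugar carrier slc2a11b read 3.87, 5.85 and 3.41 in Hoxb1a-deficient r4, against 6.78, 5.58 and 5.39 in normal r4 (-0.47 ± 0.26, interval -1.04 to 0.11). It was higher in Hoxb1a-deficient r4 of experiment 2 and lower in the other 2 experiments.

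The nucleotide sugar family member slc35f2, just under the level threshold, read 1.89, 2.14 and 2.00 in Hoxb1a-deficient r4, against 1.34, 1.83 and 1.70 in normal r4. It averaged above 2 only in Hoxb1a-deficient r4 (2.01) and was listed through that group, so its log2 fold change of 0.32 ± 0.24 is a description and nothing is read from its direction. The remaining genes with the lowest p were slc15a2 (-0.56 ± 0.42), slc25a43 (-0.45 ± 0.46), slc49a4 (-0.29 ± 0.28), slc38a7 (-0.27 ± 0.23) and slc2a3a (-0.26 ± 0.25). All 8 had an adjusted p of 1.00 in limma and between 0.873 and 0.890 with the block. The slc15a2 level was lower in Hoxb1a-deficient r4 in all 3 experiments, with log2 differences of -0.97, -0.39 and -0.31. The 1 sign that turned was that of slc25a43, at 0.0047 without normal r4 replicate 1.

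For slc6a7 the levels were 6.87, 7.19 and 3.77 in Hoxb1a-deficient r4, against 10.7, 3.82 and 6.16 in normal r4. The log2 difference was -0.64, 0.91 and -0.71 in experiments 1, 2 and 3, so the experiments did not share a direction. The fitted value of -0.14 had a 95% interval of -0.97 to 0.68, which includes both lower and higher levels in Hoxb1a-deficient r4. Of the other genes that lay lower in r2 than in r4 without overlap, slc13a5a differed by -0.81, 0.48 and -0.63 here and slc16a3b by 0.05, 0.65 and -0.29, with no shared sign. The slc38a7 differences of -0.71, -0.07 and -0.02 shared a sign but were small in experiments 2 and 3.

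**Figure D3:**
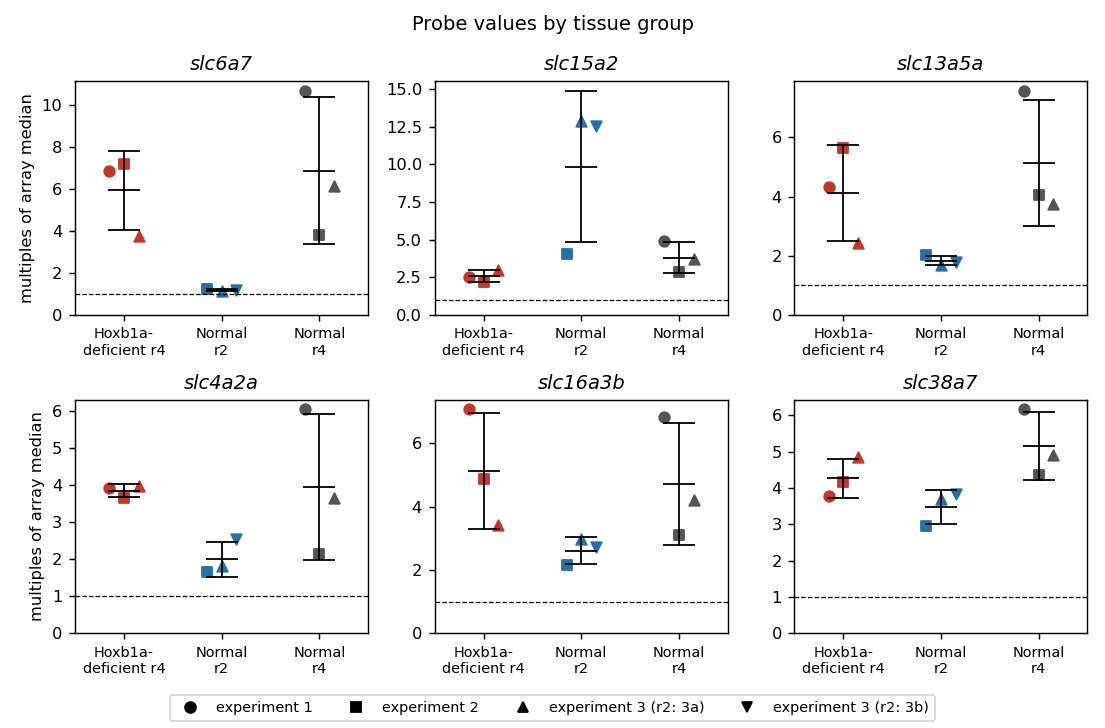
Levels of 6 solute carrier genes, in multiples of the array median on linear axes, for Hoxb1a-deficient r4, normal r2 and normal r4; points are single arrays with the experiment given by the marker, bars give the mean and SD of 3 arrays, and the dashed line marks the array median. The slc6a7 points of normal r2 lie at 1.14 to 1.25, below all points of both r4 tissues, and the slc15a2 points of normal r2 lie at 4.04 to 12.9, above all points of Hoxb1a-deficient r4.

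Hoxb1a-deficient r4 was also set against normal r2, the pair of tissues taken as lacking Hoxb1a. It shares its r2 arrays with the comparison of r2 and r4 and its Hoxb1a-deficient arrays with the comparison of the r4 tissues, so its calls are not independent of theirs. Those earlier comparisons share the normal r4 arrays. Here slc6a7 was again the 1 of 92 genes called, and it was higher in Hoxb1a-deficient r4. The levels were 6.87, 7.19 and 3.77 in Hoxb1a-deficient r4, against 1.25, 1.14 and 1.20 in normal r2. The log2 fold change was 2.26 ± 0.37, which is 4.77-fold (limma adjusted p = 0.0258, and 0.00981 with the block), with differences of 2.53 and 1.69 within experiments 2 and 3. The unblocked call was lost without Hoxb1a-deficient r4 replicate 1 (adjusted p = 0.0793) or 2 (0.146), without normal r2 replicate 2 (0.0879), 3a (0.144) or 3b (0.130), with 3a and 3b averaged (0.136) and on log2(value + 1) (0.161) or log2(value + 16) (0.796). The blocked call was lost on log2(value + 1) (0.111).

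With the block 2 of 92 genes were called, beside 3.04% of all genes, against 1 of 92 beside 0.896% without it. The added gene was slc15a2, lower in Hoxb1a-deficient r4. It read 2.49, 2.18 and 2.97 in Hoxb1a-deficient r4, against 4.04, 12.9 and 12.6 in normal r2, and the groups did not overlap. The log2 fold change was -1.78 ± 0.42 without the block (limma adjusted p = 0.175) and -1.72 ± 0.28 with it (0.0158). Within experiments it was -0.89 and -2.10. The blocked call was lost without Hoxb1a-deficient r4 replicate 3 (adjusted p = 0.117) or normal r2 replicate 3b (0.0588), with experiment 1 left out (0.0828) and on log2(value + 1) (0.106). Leaving out Hoxb1a-deficient r4 replicate 1 is the same blocked fit as leaving out experiment 1. The unblocked fit called slc15a2 without normal r2 replicate 2 (0.0136), and then not slc6a7. In that fit normal r2 was only 3a and 3b of experiment 3, treated as independent.

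Groups did not overlap for 6 of the 39 genes above 2, beside 11.7% of the 2515 genes: slc6a7, slc13a5a, slc16a3b and slc4a2a were higher in Hoxb1a-deficient r4, and slc15a2 and slc20a1b were lower. At least 1.5-fold in the same direction in both experiments were 3 of 39, slc6a7, slc4a2a and slc15a2, beside 6.32%. Here too slc6a7 and slc13a5a were among the 39 through the r4 tissues, which favours a higher level in Hoxb1a-deficient r4. The slc4a2a probe read 3.92, 3.66 and 3.99 in Hoxb1a-deficient r4, against 1.65, 1.82 and 2.54 in normal r2, a log2 fold change of 0.97 ± 0.34 (limma adjusted p = 0.713, and 0.147 with the block). For slc13a5a the levels were 4.33, 5.65 and 2.42 in Hoxb1a-deficient r4, against 2.02, 1.70 and 1.79 in normal r2 (1.09 ± 0.35; limma adjusted p = 0.570, and 0.155 with the block). For slc16a3b they were 7.08, 4.88 and 3.43, against 2.16, 2.97 and 2.71 in normal r2 (0.92 ± 0.34; limma adjusted p = 0.803, and 0.149 with the block).

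The next genes by p were slc34a2b (log2 fold change 0.59 ± 0.32), slc3a2b (0.84 ± 0.43) and slc25a38b (-0.54 ± 0.28), at an adjusted p of 0.996 in limma. For slc3a2b the value was 0.38 with the block. The other slc34a2b probe, below 1 on all arrays, gave -0.16. The unadjusted p was under 0.05 for 5 of 92 genes, beside 6.27% of all genes, and for 12 with the block, beside 18.1%. Over the 39 genes the median log2 fold change was 0.10 without the block, with 24 higher in Hoxb1a-deficient r4, and -0.15 with it, with 13 higher, beside 0.04 and -0.17 over all 2515 genes.

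Experiment 1 stood above the other experiments for most of the brighter solute carrier genes. In normal r4, 38 of the 39 genes were higher in experiment 1 than the mean of experiments 2 and 3, by a median of 0.89 on the log2 scale, beside 86.8% of all genes above 2. In Hoxb1a-deficient r4 the same held for 34 of 39, by a median of 0.41, beside 80.7%. The mean that placed genes above 2 included experiment 1, so that filter favours a higher level in experiment 1. It was also applied to all genes above 2. The slc35h1 probe passed 2 only in experiment 1, at 3.85 in Hoxb1a-deficient r4 and 4.09 in normal r4, and read 1.28 to 1.95 on its other arrays. The widest offset was that of slc35b4, which read 9.37, 2.97 and 3.21 in Hoxb1a-deficient r4 and 11.8, 2.07 and 2.54 in normal r4 of experiments 1, 2 and 3. For slc25a32a experiment 1 stood 2.04 above the others in Hoxb1a-deficient r4 and 0.96 in normal r4, on the log2 scale.

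Experiment 1 held no r2 sample, so its offset enters every unblocked comparison with r2 and none of the within-experiment differences with r2. Between the r4 tissues of experiment 1 only the shared part of the offset cancels. Its median over the 39 genes was 0.41 in Hoxb1a-deficient r4 and 0.89 in normal r4, beside 0.60 and 0.75 over all 2515 genes above 2. Among genes not above 2 its sign differed. In Hoxb1a-deficient r4 and normal r4 it was -0.66 and -0.92 for slc12a3, and 1.48 and 1.55 for slc40a1. The median absolute log2 difference of the 39 genes was 0.15 between the 2 r2 samples of experiment 3. It was 0.33, 0.23 and 0.32 between Hoxb1a-deficient and normal r4 within experiments 1, 2 and 3, 0.32 and 0.40 between normal r2 and normal r4 within experiments 2 and 3, and 0.76 between normal r4 of experiments 1 and 2. Over all 2515 genes above 2, the values in the same order were 0.19, then 0.22, 0.22 and 0.29, then 0.24 and 0.29, and 0.85. Arrays of 1 tissue also differed between experiments 2 and 3. There the 39 genes gave 0.44 for the Hoxb1a-deficient tissue and 0.31 for normal r4. Sample 2 of r2 gave 0.53 against 3a and 0.44 against 3b. The listed differences between tissues, 0.23 to 0.40, lay within or below this range of 0.31 to 0.53. Over all 2515 genes these same-tissue values were 0.35, 0.32, 0.45 and 0.39.

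**Figure D4:**
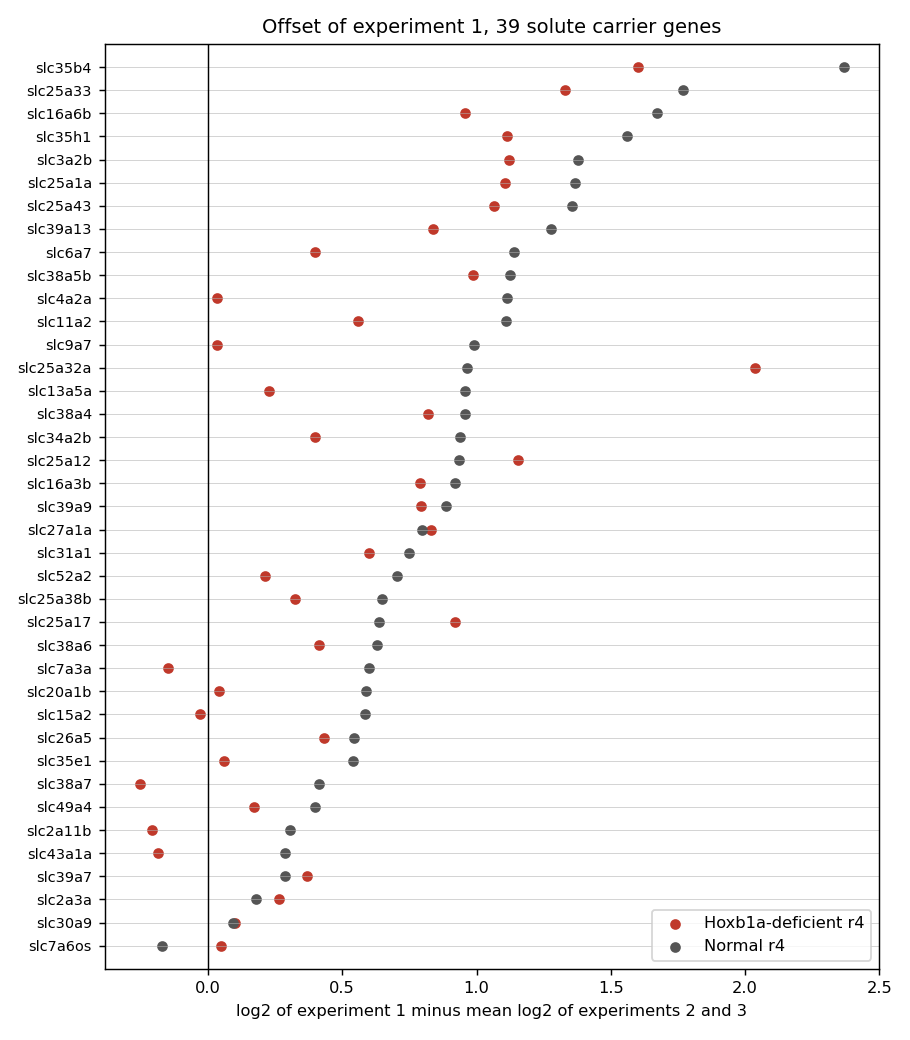
Offset of experiment 1 for the 39 solute carrier genes, as log2 level in experiment 1 minus the mean log2 level of experiments 2 and 3, with 1 point for Hoxb1a-deficient r4 and 1 for normal r4. Points lie right of 0 for 34 of 39 genes in Hoxb1a-deficient r4 and for 38 of 39 in normal r4, with slc35b4 at the top. The exception in normal r4 is slc7a6os (-0.17), whose probe is at the highest value of the array on 8 of 9 arrays.

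Transport genes outside the solute carrier numbering were counted in normal r2 against normal r4, where 1.01% of all genes were called without the block and 2.5% with it. Of 12 sodium-potassium ATPase genes, whose pump builds the sodium gradient that many solute carriers use, 4 were above 2 and 0 passed limma's test. With the block atp1a1a.4 was called, lower in r2 (limma adjusted p = 0.0277, and 0.959 without the block). It read 0.737, 0.629 and 0.723 in normal r2, against 4.95, 1.06 and 1.29 in normal r4. In experiments 2 and 3 it thus lay near or below the array median, where signal was not separated from background. Of 8 vacuolar proton ATPase genes 2 were above 2, of 9 ATP-binding cassette genes 3, of 6 aquaporin genes 0, and of 7 measured carriers with other names 3. None of these 4 lists had a call in that comparison in the unblocked limma fit.

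Markers of other tissue in the slice, and genes of position in the hindbrain, also differed in the comparisons with r2. In normal r2 against normal r4, limma's test called 1.01% of all genes. Of 15 otic vesicle markers 7 were lower in normal r2 than in normal r4 by limma's test, and their summed level was 68.7 to 147 in Hoxb1a-deficient r4, 19.0 to 21.5 in normal r2 and 64.2 to 192 in normal r4. Of 13 skin markers 2 were lower in r2, with sums of 84.2 to 160, 32.5 to 62.6 and 63.0 to 155 in the same order of tissues. The otic and skin lists share epcam, which was called in both, and cldnb. Of 6 hindbrain position genes 4 were lower in r2 (sums of 129 to 199, 32.9 to 63.9 and 138 to 200), and of 12 midbrain, isthmus and rhombomere 1 markers 2, otx2b and fgf8a, were higher (17.6 to 45.1, 27.2 to 54.5 and 18.4 to 52.7). The midbrain and otic lists share pax2a, pax5 and pax8, none of them called. The pax2a probe, at 14.9 in normal r4 of experiment 1, enters the sums of both lists. Most of each hindbrain position sum was egr2b, at 113 to 153, 24.7 to 52.3 and 112 to 152 in the same order of tissues. Of 2 ionocyte markers 1, ca2, was lower in r2, and of 5 pigment cell markers 1, gch2, was higher. In Hoxb1a-deficient r4 against normal r2, limma's test called 0.896% of all genes. There 7 of 15 otic, 2 of 13 skin and 2 of 6 hindbrain position genes were higher. Lower were 2 of 12 midbrain markers and 1 of 5 pigment cell markers. Blood and skeletal muscle markers, 10 and 11 measured, had 0 above 2. The part of these tissues in the slc6a7 and slc15a2 differences was not tested.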

How the data were processed

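Tissue RNA was amplified, biotin-labelled and hybridised to 9 one-colour arrays, per the labels' protocols. The authors deposited 1 table of 16399 rows with a linear value per probe and array, read here as ratios that divide each spot's intensity by 1 constant for its array, because array medians lie at about 1. How scanner and background were handled and how values were normalized is not given in the sources. Gene names came from the platform annotation, updated by Entrez id (91 of the 92 genes matched), and 172 spots of 1 actb2 accession were left out. Group means over 9 arrays were fitted to log2 of the deposited values with limma 3.58.1 in R 4.3.3 (lmFit, eBayes, two-sided, Benjamini-Hochberg over 16227 probes, threshold 0.05), after a test on simulated data.

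The experiment was the replicate block in an alternative fit. The series' design text pairs the arrays by experiment, and deviations of same-experiment Hoxb1a-deficient and normal r4 arrays correlated with 0.892, 0.730 and 0.683. Those of same-experiment r2 arrays (2, 3a and 3b) correlated with 0.531, -0.0625 and 0.222 for normal r4 and 0.5245, -0.119 and 0.252 for Hoxb1a-deficient r4. Across experiments, the r4 tissues correlated with 0.352 and 0.504 between experiments 2 and 3, and -0.781 to -0.678 where experiment 1 was involved. For r2 sample 3a, normal and Hoxb1a-deficient r4 of experiment 1 gave 0.396 and 0.349, above its same-experiment values. The other pairs of r2 across experiments gave -0.537 to 0.0323. The text names the genes past either fit, those changed by 1.5-fold in every experiment, the 8 lowest p-values per comparison among genes above 2 in at least 1 of the groups compared, the 10 brightest, the brightest per role and 3 on each side of the level threshold. The members, lists and naming rule were chosen with earlier results of these data known.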

Additional observations from a re-analysis of the deposited data

How the results depend on the processing

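With the main limma fit 0, 1 and 1 of the 92 solute carrier genes were called in Hoxb1a-deficient r4 against normal r4, normal r2 against normal r4 and Hoxb1a-deficient r4 against normal r2. The first count was 0 under all alternatives run. The second was 0 with samples 3a and 3b averaged, on log2(value + 1) or log2(value + 16), with the replicate block and experiment 1 left out, and with the block on log2(value + 1); it was 3 with the block after quantile normalization, with the experiment as a random block and with the block under trended, robust eBayes. The third was 0 with 3a and 3b averaged, on log2(value + 1) or log2(value + 16), and with the block on log2(value + 1); it was 2 after quantile normalization, with the replicate block, with the random block and with the block under trended, robust eBayes, and 5 with the block after quantile normalization. Leaving out 1 array at a time gave 0 to 1 in both, and with the block 0 to 3 (2 without normal r4 replicate 2) and 1 to 5 (4 without Hoxb1a-deficient r4 replicate 2). Fits with the block and experiment 1, the pseudocount, the variance model or an array changed were chosen after seeing the data. Of 26 other settings, slc6a7 passed in 15 for normal r2 against normal r4 and in 17 for Hoxb1a-deficient r4 against normal r2, with adjusted p from 0.000622 to 0.642 and from 0.00108 to 0.796. For slc15a2 the numbers were 5 and 8 of 26, and for slc13a5a they were 4 and 1. In Hoxb1a-deficient r4 against normal r2, slc16a3b passed in 2 and slc25a38b in 1. In each comparison with r2, the blocked fits without experiment 1 and without the compared r4 array of experiment 1 are the same fit, counted under both names. The 1 reversed sign was slc25a43 in Hoxb1a-deficient r4 against normal r4, at 0.0047 without normal r4 replicate 1, against -0.89 when replicate 2 was left out instead. The cause of these changes was not tested. Dim probes limit the depth: 41 of 92 genes lay below the array median on every array.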
